A study of Mus musculus with 19 samples.

Results

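The receptors through which steroid hormones and gonadotropins act were followed in whole mouse ovary from the early gonad to the first days after birth. The 6 genes were Esr1 and Esr2 (oestrogen receptors alpha and beta), Pgr (progesterone receptor), Nr3c1 (glucocorticoid receptor), Fshr (receptor of follicle-stimulating hormone, FSH) and Lhcgr (receptor of luteinizing hormone, LH). Members were the probe sets of the array that the platform annotation pairs with 1 of these symbols alone. This gave 14 of 45101 probe sets and 5 of the 6 genes, out of 18193 genes with such a probe set: 3 for Esr1, 1 for Esr2, 3 for Pgr, 6 for Nr3c1 and 1 for Fshr. For a gene with several, the probe set with the highest mean over the ovary arrays represents it. Lhcgr has no probe set annotated to it alone in the table used here and was not analysed here.

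Wild-type CD-1 mice, an outbred strain, gave 18 ovary arrays, 3 at each of 6 stages: day 11, 12, 14, 16 or 18 of gestation (gd) and day 2 after birth (pnd). No treatment was given. The sample labels call the gd11, gd12 and gd14 samples pools of 3 and the later ones unpooled, while the text of the series calls every sample the ovary pair of 1 animal. By that text each animal had its own dam except gd11 samples 18 and 19, which shared one. At gd11, samples 16 and 18 are labelled as including the mesonephros, the transient kidney beside the gonad, and sample 19 is labelled gonad alone. The remaining array, of 19, is a reference made from 8 pooled whole newborns of both sexes at pnd 0.5 and has no replicate.

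Esr1, Esr2, Pgr and Nr3c1 belong to the nuclear receptor family: a steroid enters the cell, binds the receptor, and the pair acts on genes as a transcription factor together with coregulator proteins. Fshr and Lhcgr sit in the cell membrane and signal through G proteins and cyclic AMP. In the adult ovary FSH acts on granulosa cells, LH on theca cells and on granulosa cells of late follicles, oestradiol from granulosa cells acts back through both oestrogen receptors, and Pgr is induced by LH before ovulation. The stages here precede those cycles.

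The labelled tissue was read from its markers. The summed signal of 10 granulosa lineage markers went from 5095 to 6291 on the gd11 arrays to 27319 to 31541 at gd16, and was 18699 to 24837 at pnd2, and 8 of the 10 were called higher at pnd2 than at gd11. The sum of 6 germ cell markers was 622 to 1030 at gd11, 29154 to 32009 at gd14 and 12973 to 17237 at pnd2, and that of 5 erythroid markers was 49221 to 57143 at gd11 and 235 to 270 at pnd2. These 5 were Hbb-y, Hbb-bh1, Hba-x, Alas2 and Epor, all called lower at pnd2 than at gd11. They did not fall together: at gd16 versus gd14, 1 was called higher and 2 lower, and Alas2 was highest at gd16. The sum of 7 oocyte markers went from 131 to 242 at gd11 to 27638 to 38326 at pnd2. Sums of 8 mesonephros markers went the other way, from 4520 to 5142 at gd11 to 1711 to 2836 at pnd2, and 5 neuron markers summed to 895 to 16708 at gd11, the highest on sample 16. One array went against its label: Xist, the RNA that coats the inactive X chromosome of female cells, read 44.8 on gd16 sample 7 and at least 11306 on each of the other 17 ovary arrays, while its highest Y-linked signal, 64.4, lay within the range of the other ovary arrays. Called changes of the receptor probe sets between gd16 and its neighbours are given with and without sample 7. The erythroid counts above and the shares of all tested probe sets below include it. The Gapdh 3'/5' ratio, a sign of RNA quality, also moved with stage, from 2.987 to 3.28 at gd11 to 5.068 to 5.408 at pnd2, and its part in the stage differences was not tested.

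Signals are linear intensities, with every array brought to a trimmed mean of 500, and signals of different probe sets are not compared with each other. Since the value table holds no detection calls, background was read from 44 probe sets of olfactory receptors, genes of the nasal lining. Their 95th percentile on an ovary array ran from 60.3 to 115, the highest on gd16 sample 7. The representative probe sets of Esr1 and Nr3c1 were above that level of their own array on 18 of 18 arrays, that of Pgr on 16, that of Fshr on 5 and that of Esr2 on 3. The plot of the 5 genes by stage shows each array beside this level.

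**Figure D1:**
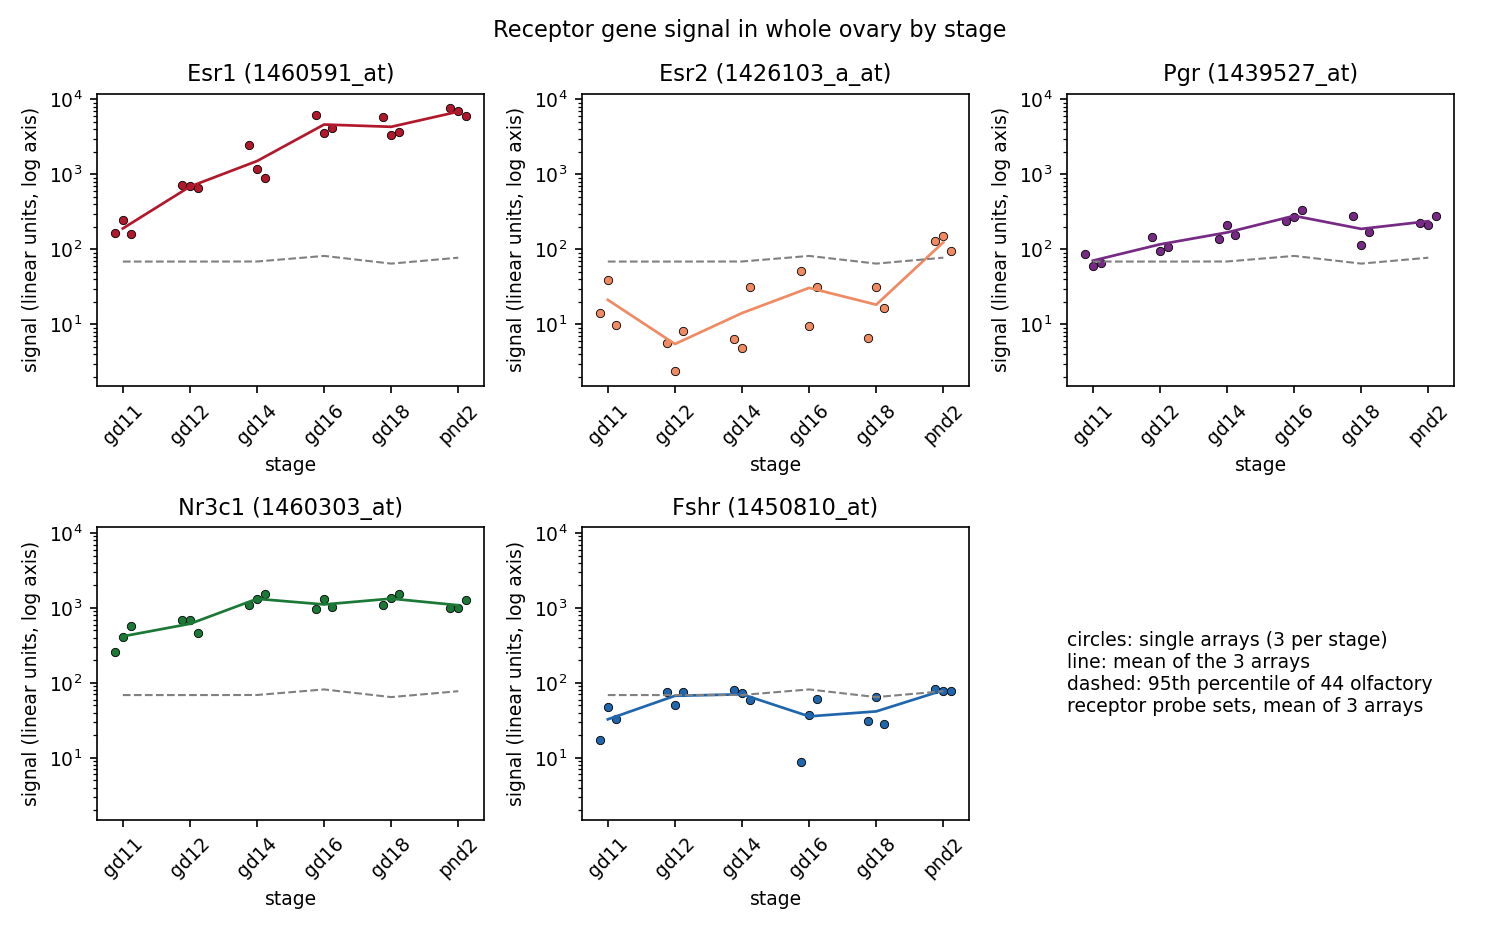
Signal of the representative probe set of each receptor gene (log axis, linear units) on the 3 arrays of each stage (circles) with the stage mean (line); the dashed line is the 95th percentile of 44 olfactory receptor probe sets, as the mean of 3 arrays. Esr1 climbs from 160 to 244 at gd11 to 6004 to 7657 at pnd2, Nr3c1 stays above the dashed line throughout, and Esr2 exceeds it at pnd2 alone.

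Stages were compared with limma on log2(signal + 31) over 26431 probe sets whose mean in at least 1 stage was above 116.05, with p values adjusted over all of them (Benjamini-Hochberg) and a call at an adjusted p under 0.05. Of the 14 member probe sets 7 were tested: 2 of Esr1, 3 of Nr3c1 and 1 each of Esr2 and Pgr. Esr2 passed the filter only through pnd2, where its mean was 124, so it had to be higher there to be tested at all. It is therefore described by its signals, with no count or test. Of the 3 other tested genes, Esr1, Pgr and Nr3c1, the F test over the 6 stages called 3, against 62.8% of all tested probe sets. From gd11 to pnd2 the same 3 were called, all higher, against 42% called in either direction and 22.4% called higher. In the day-to-day comparisons Esr1 was called at gd12 versus gd11 (4.12% of all tested probe sets were), Esr1 and Nr3c1 at gd14 versus gd12 (16.5%) and Esr1 at gd16 versus gd14 (18.8%). At gd18 versus gd16, where 7.58% of probe sets were called, limma called 0 of the 3 and 1, Pgr, had an unadjusted p under 0.05. At pnd2 versus gd18, where 13% were called, limma called 0 of the 3 and 1, Esr1, had an unadjusted p under 0.05. Log2 changes below are on the scale with 31 added, which understates changes of low signals, and are given ± SE of the fit.

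**Figure D2:**
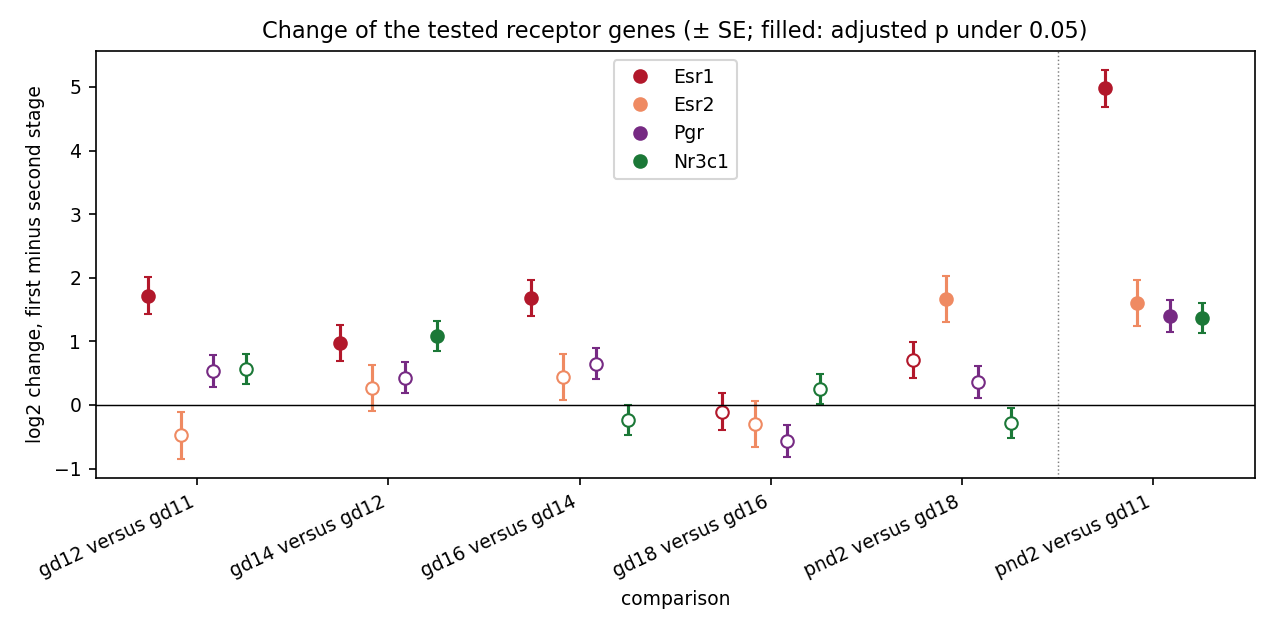
Log2 change (first minus second stage, ± SE of the limma fit) of Esr1, Esr2, Pgr and Nr3c1 in the 5 day-to-day comparisons and, right of the dotted line, over the whole span; filled circles have an adjusted p under 0.05. On the representative probe sets shown, Esr1 takes 3 steps up to gd16 and Nr3c1 takes 1 at gd14. Both, with Pgr, are higher at pnd2 than at gd11. Esr2 was tested only because its pnd2 mean passed the filter, so its filled circles follow from that choice.

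Esr1, which mediates most oestrogen action in the reproductive tract, rose 36.2-fold in mean signal from gd11 to pnd2. The probe set 1460591_at read 166, 244 and 160 on gd11 samples 16, 18 and 19, and 718, 692 and 651 on gd12 samples 13, 14 and 15. On gd14 samples 10, 11 and 12 it read 2443, 1168 and 909, and on gd16 samples 7, 8 and 9 it read 6201, 3556 and 4128. The gd18 samples 4, 5 and 6 gave 5896, 3322 and 3729, and the pnd2 samples 1, 2 and 3 gave 7657, 6966 and 6004. The 3 arrays of each stage up to gd16 lay wholly above those of the stage before, the gd16 and gd18 arrays overlapped, and every pnd2 array was above every gd18 array.

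The log2 change was 1.72 ± 0.29 at gd12 versus gd11 (limma adjusted p = 0.00192), 0.97 at gd14 versus gd12 (adjusted p = 0.0252) and 1.69 at gd16 versus gd14 (adjusted p = 0.000589). The last of these was 1.46 without gd16 sample 7 (adjusted p = 0.00489). The step to gd14 rested on gd14 sample 10, the highest of its stage: without it the change was 0.57 with an adjusted p of 0.162. The call was also lost without any 1 of the gd12 arrays (adjusted p of 0.0503 to 0.0814) and in a fit to only the arrays compared (adjusted p = 0.0519). The step to gd12 was 1.91 when gd11 sample 19, the array without mesonephros in its label, stood alone for gd11, against 1.72 with all 3 arrays. With the lone array, which was assumed to vary like the others, this step was not called. From gd16 on neighbouring stages were not told apart. The change was -0.11 at gd18 versus gd16 (adjusted p = 0.871), and 0.13 without gd16 sample 7. At pnd2 versus gd18 it was 0.71 (adjusted p = 0.113), with a call in 2 of 30 other settings: without gd14 sample 10 (adjusted p = 0.0438) and with the mean of the Esr1 probe sets (0.90, adjusted p = 0.0143). That mean also lowered the steps to gd12 (0.94) and to gd16 (0.83) and the change over the span (3.31), all still called. Over the span the change was 4.98 (adjusted p = 2.07e-10), and 0.435% of tested probe sets had a higher F than Esr1.

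A second Esr1 probe set, 1435663_at, read 18.5, 37.6 and 46.1 at gd11, all under the olfactory 95th percentile, and 1171 to 1790 at pnd2. The mean went from 34.1 to 1552, a log2 change of 4.61 (limma adjusted p = 2.73e-08). Against the olfactory 95th percentile of the gd11 arrays the rise was at least 22.2-fold, a bound without a test. Over the 18 arrays this probe set followed the first with a Pearson r of 0.94, from the same RNA on the same arrays. The probe set 1435663_at differed in where the steps fell: 0.54 at gd16 versus gd14 (adjusted p = 0.345) and 1.29 at pnd2 versus gd18 (adjusted p = 0.0321), the latter call being lost in 6 of 29 other settings. Its change at gd12 versus gd11, 1.35, was not called (adjusted p = 0.0529), but was in 5 of 29 other settings. At gd14 versus gd12 it was 0.81 with overlapping arrays and no call (adjusted p = 0.165). On gd14 sample 10 it read 641 beside 164 and 149, so the array that was highest on the first probe set was highest on this one too. The third, 1421244_at, had stage means of 18.0 to 53.7 and was above the olfactory level on 2 of 18 arrays. In bulk RNA of a whole organ, fewer cells of a type and less RNA per cell cannot be told apart, and the granulosa marker sum was 9904 to 25452 at gd12 and 20826 to 23706 at gd14, between the gd11 and gd16 values given above. The part of this sum, and of the germ cell and erythroid sums, in the rise of Esr1 was not tested.

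**Figure D3:**
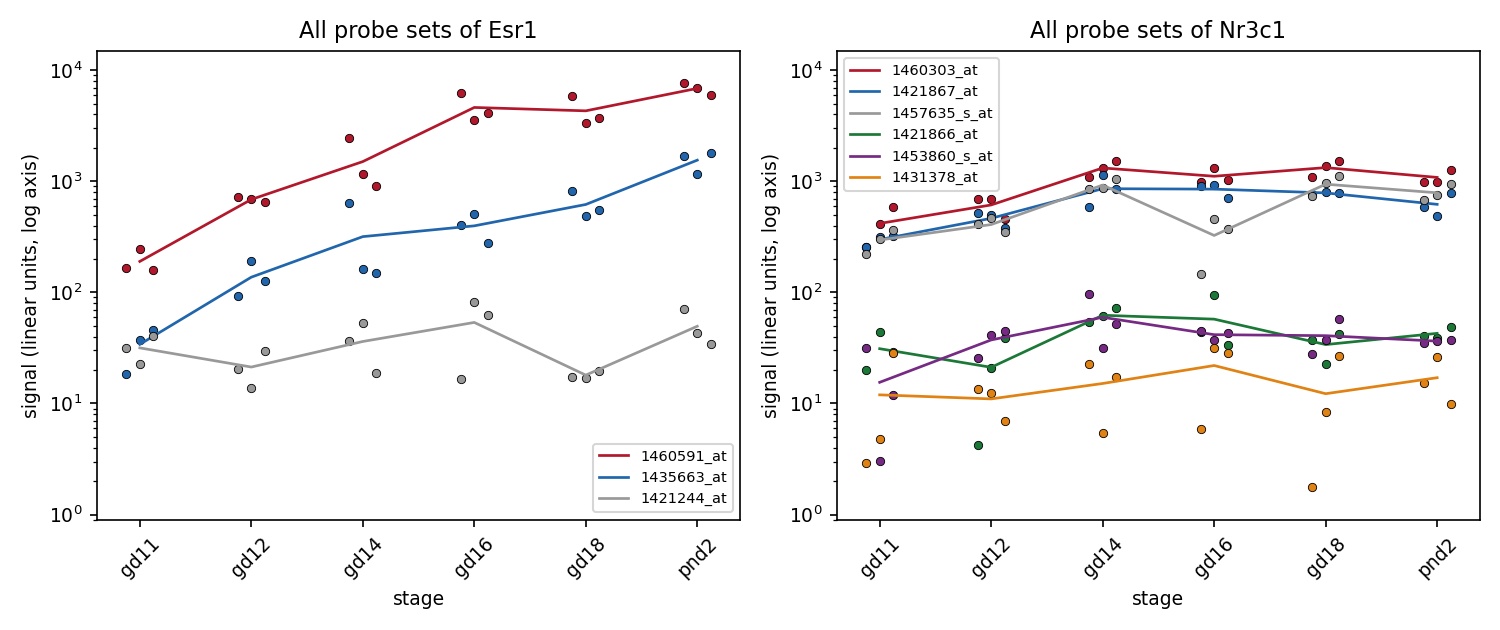
Signal (log axis, linear units) of every probe set of Esr1 (left) and Nr3c1 (right) on the 3 arrays of each stage, with lines through the stage means. Both brighter Esr1 probe sets are higher at pnd2 than at gd11, with called steps at different stages. Of the 3 brighter Nr3c1 probe sets 1457635_s_at alone drops at gd16, to 147, 454 and 376.

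Esr2, the oestrogen receptor of granulosa cells in the adult, was under the olfactory level on the fetal arrays and above it on the pnd2 arrays. Its single probe set, 1426103_a_at, read 130, 149 and 94.0 on pnd2 samples 1, 2 and 3, where the olfactory 95th percentile was 69.9, 89.7 and 72.8. On the 15 fetal arrays it ran from 2.42 to 50.8, and all 15 lay under that level. Every pnd2 array was therefore above every fetal array. With each dim array set at its olfactory level, the pnd2 signal was at least 1.89-fold that of gd18 and at least 1.77-fold that of gd11, where the measured means were 18.3 and 21.2. These bounds use the pnd2 values through which Esr2 passed the filter, so they are description only. The olfactory receptor probe set of Olfr976 itself read 176 to 547 at pnd2 and 3.44 to 12.7 at gd18. A pnd2 signal above the olfactory 95th percentile therefore does not by itself show expression of Esr2. Differences among the 5 fetal stages are differences within background and have no order.

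Pgr, a target of oestrogen action in many tissues as well as the progesterone receptor, was low and was higher at pnd2 than at gd11. The probe set 1439527_at read 87.8, 59.2 and 65.2 at gd11 and 147, 95.7 and 108 at gd12, so at gd11 only sample 16 was above its olfactory level. It read 139, 210 and 155 at gd14 and 235, 274 and 331 at gd16. The gd18 arrays spread from 113 to 279, and those of pnd2 gave 222, 214 and 276. No day-to-day step was called: the largest was 0.65 ± 0.25 at gd16 versus gd14 (limma adjusted p = 0.0759; 0.76 and adjusted p = 0.0779 without gd16 sample 7), although the 3 gd16 arrays lay above the 3 of gd14 and it was called in 3 of 29 other settings. Over the span Pgr rose by 1.40 on the log2 scale (adjusted p = 0.000167), with 1 of the 3 gd11 arrays above its olfactory level, and by 0.74 with the mean of its probe sets (adjusted p = 0.00959) or 0.92 with the larger pseudocount tried (adjusted p = 0.00031). In the order of stage means, gd16, pnd2, gd18, gd14, gd12, gd11, no neighbours were told apart. The other Pgr probe sets, 1421444_at and 1455772_at, were under the olfactory level on all 18 arrays.

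Nr3c1 was the one member well above background at every stage apart from Esr1, and its rise came early. The probe set 1460303_at read 256 (sample 16), 415 (sample 18) and 582 (sample 19) at gd11 and 688, 696 and 456 at gd12. It read 1099, 1331 and 1531 at gd14, all above the gd12 arrays, and from gd14 to pnd2 it stayed between 981 and 1531. The step at gd14 versus gd12 was 1.08 ± 0.24 (limma adjusted p = 0.00391) and held in all 30 other settings. Over the same step the germ cell marker sum went from 2762 to 10014 at gd12 to 29154 to 32009 at gd14. The part of cell composition in the step of Nr3c1 was not tested. Over the span the change was 1.37 (adjusted p = 0.000124), and 0.85 (adjusted p = 0.0291) with gd11 sample 19 alone for gd11, the sample with the highest signal of that stage, or 0.78 with the mean of its probe sets (adjusted p = 0.000785). Stages from gd14 on were not told apart from their neighbours in order, gd18, gd14, gd16 and pnd2, and pnd2 was above gd12 with an adjusted p of 0.0116.

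The 3 tested Nr3c1 probe sets differed most at gd16. All 3 rose at gd14 versus gd12, by 0.81 for 1421867_at (limma adjusted p = 0.0129) and by 1.13 for 1457635_s_at (adjusted p = 0.00939). The call of 1421867_at was lost without gd14 sample 11 (adjusted p = 0.0815) or gd12 sample 15 (adjusted p = 0.0764). Over the span they changed by 0.96 (adjusted p = 0.00122) and 1.33 (adjusted p = 0.000814), with adjusted p of 0.0505 and 0.0642 when gd11 sample 19 stood alone for gd11. At pnd2 versus gd12, called for 1460303_at above, 1457635_s_at changed by 0.90 (adjusted p = 0.0172) and 1421867_at by 0.38 with overlapping arrays (adjusted p = 0.171). At gd16, 1457635_s_at read 147, 454 and 376 after 854, 869 and 1055 at gd14, and 743, 963 and 1123 at gd18, so its gd16 arrays lay under all arrays of both neighbours. It fell by 1.54 ± 0.28 (adjusted p = 0.001) and rose again by 1.55 (adjusted p = 0.00234). Without gd16 sample 7, the lowest of its stage, it fell by 1.10 (adjusted p = 0.00352) and rose by 1.11 (adjusted p = 0.00793). Over the same steps 1460303_at changed by -0.24 and 0.25, and 1421867_at by 0.02 and -0.10, none of them called. The range between the 3 probe sets, 1.56 and 1.65 on the log2 scale, was exceeded by 1.7% and 0.691% of the 5641 genes with several tested probe sets, whose median range was 0.45 and 0.41. Those genes were not matched to Nr3c1 in their number of probe sets, and a range can widen with that number. The comparison was made after the drop was seen, and both ranges use the same gd16 arrays. It includes gd16 sample 7 and was not repeated without it. Without sample 7, 1460303_at changed by -0.16 and 0.17 and 1421867_at by -0.03 and -0.05, so the probe sets lay closer together. The remaining 3 Nr3c1 probe sets had stage means under 63 and were above the olfactory level on at most 2 of 18 arrays.

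Fshr did not reach the signal needed for the test. Its probe set 1450810_at read 17.1, 47.4 and 33.4 at gd11, between 50.5 and 76.2 at gd12, and 80.2, 72.5 and 58.6 at gd14. Its gd16 arrays gave 8.81, 36.8 and 61.6, the gd18 arrays 31.3, 65.1 and 28.5, and the pnd2 arrays 82.7, 78.3 and 78.0. It was above the olfactory 95th percentile on 5 arrays, and the pnd2 arrays were the most alike. When no filter was applied, the F test gave an adjusted p of 0.075, and pnd2 versus gd11 gave a change of 0.83 with an adjusted p of 0.0474. At these signals a low level of Fshr and background cannot be told apart.

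Beside the whole newborn, a description without replicates, the pnd2 ovary was high in Esr1. The reference array read 460 for 1460591_at and 101 for 1435663_at, so the pnd2 means were 14.9 and 15.4 times as high. Pgr read 63.0 on the reference, under its olfactory level of 66.6, and Esr2 2.80. For Nr3c1, which most tissues express, the reference read 1614 for 1460303_at and 1127 for 1421867_at, with pnd2 means 0.673 and 0.551 times those, and 849 for 1457635_s_at, inside the pnd2 range of 674 to 944.

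Promoter windows are shown for the 3 sex steroid receptor genes, and that of Nr3c1 is not reported here. They are RefSeq sequences of build GRCm38.p6, 250 bases before to 50 after a start that RefSeq annotates, 5' to 3' on the strand of the gene; capitals mark the motif matches found by a search on both strands. The Esr1 window is chr10:4611739-4612038 (plus strand), that of Esr2 chr12:76177210-76177509 (minus strand) and that of Pgr chr9:8899583-8899882 (plus strand), whose start lies 933 bases inside the gene record.
Esr1: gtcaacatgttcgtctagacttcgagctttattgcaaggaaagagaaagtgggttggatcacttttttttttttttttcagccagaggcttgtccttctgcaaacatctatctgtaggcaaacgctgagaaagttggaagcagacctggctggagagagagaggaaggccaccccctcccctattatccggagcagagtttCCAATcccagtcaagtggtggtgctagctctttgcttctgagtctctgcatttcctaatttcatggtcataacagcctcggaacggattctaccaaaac
Esr2: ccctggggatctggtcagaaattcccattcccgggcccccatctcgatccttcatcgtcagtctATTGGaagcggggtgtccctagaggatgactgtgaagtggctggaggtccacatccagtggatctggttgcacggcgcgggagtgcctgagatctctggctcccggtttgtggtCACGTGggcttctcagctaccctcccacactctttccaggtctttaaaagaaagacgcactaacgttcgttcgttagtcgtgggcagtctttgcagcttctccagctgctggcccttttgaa
Pgr: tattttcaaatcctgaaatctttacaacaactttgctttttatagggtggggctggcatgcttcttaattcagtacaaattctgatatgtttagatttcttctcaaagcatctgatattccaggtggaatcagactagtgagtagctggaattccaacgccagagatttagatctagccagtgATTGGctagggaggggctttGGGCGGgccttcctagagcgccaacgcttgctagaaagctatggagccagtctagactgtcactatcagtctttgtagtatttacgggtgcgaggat
The Esr1 window held 1 match, a CCAAT box that starts 49 bases before the start site, and a second annotated Esr1 start at chr10:4709908-4710207 held none. The Esr2 window held an E-box, CACGTG, 72 bases before the start and a reverse CCAAT box, and the Pgr window held GGGCGG, the core of an Sp1 site, 47 bases before the start and a reverse CCAAT box 67 bases before it. Of 32851 promoter windows of the same length, 37.4% hold CCAAT, 35.7% GGGCGG and 7.15% CACGTG on either strand. The nuclear receptor half-site AGGTCA, the NR5A site CAAGGTCA and the full oestrogen response element were searched too and are in 16.3%, 1.56% and 0.07% of windows. None of them was in the windows of these 3 genes, and no motifs overlapped there other than that CAAGGTCA contains AGGTCA. The windows of Fshr and Lhcgr, not printed, were searched as well. That of Fshr held CACGTG 61 bases before the start. That of Lhcgr held AGGTCA 122 bases before the start and GGGCGG at 76, 42, 25 and 12 bases before it.

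Genes with the pattern most like each receptor were taken by Pearson r of log2 values over the 18 ovary arrays among 12063 genes. For Esr1 these were Gas6 (a ligand of TAM receptor kinases), Foxl2 (a transcription factor of the granulosa lineage), Slc26a7 (an anion exchanger) and Gsto2 (a glutathione transferase), all with r of 0.96, and the least alike were Igdcc3 and Trim59, both at -0.97. For Nr3c1 they were Rbm46 (a germ cell RNA-binding protein) at 0.95, Tcp11l2 and Malt1 at 0.94 and Bace2 (a protease) at 0.93, with Usp22 (-0.93) and Nmral1 (-0.92) least alike. For Pgr they were Plpp1 (a lipid phosphatase) at 0.88 and Kdelr3, B3gnt9 and Ctso at 0.87, with Mapk1ip1l (-0.89) and Enah (-0.87) least alike. For Esr2, above the olfactory level on only 3 arrays, C8b, Myh2, Nprl2 and Olfr976 stood at 0.89 to 0.91, Olfr976 being itself an olfactory receptor. Trp53bp1 (-0.88) and Ttc30a1 (-0.87) were least alike. The values share their arrays and stages, and the r of many genes that change with stage is high.

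**Figure D4:**
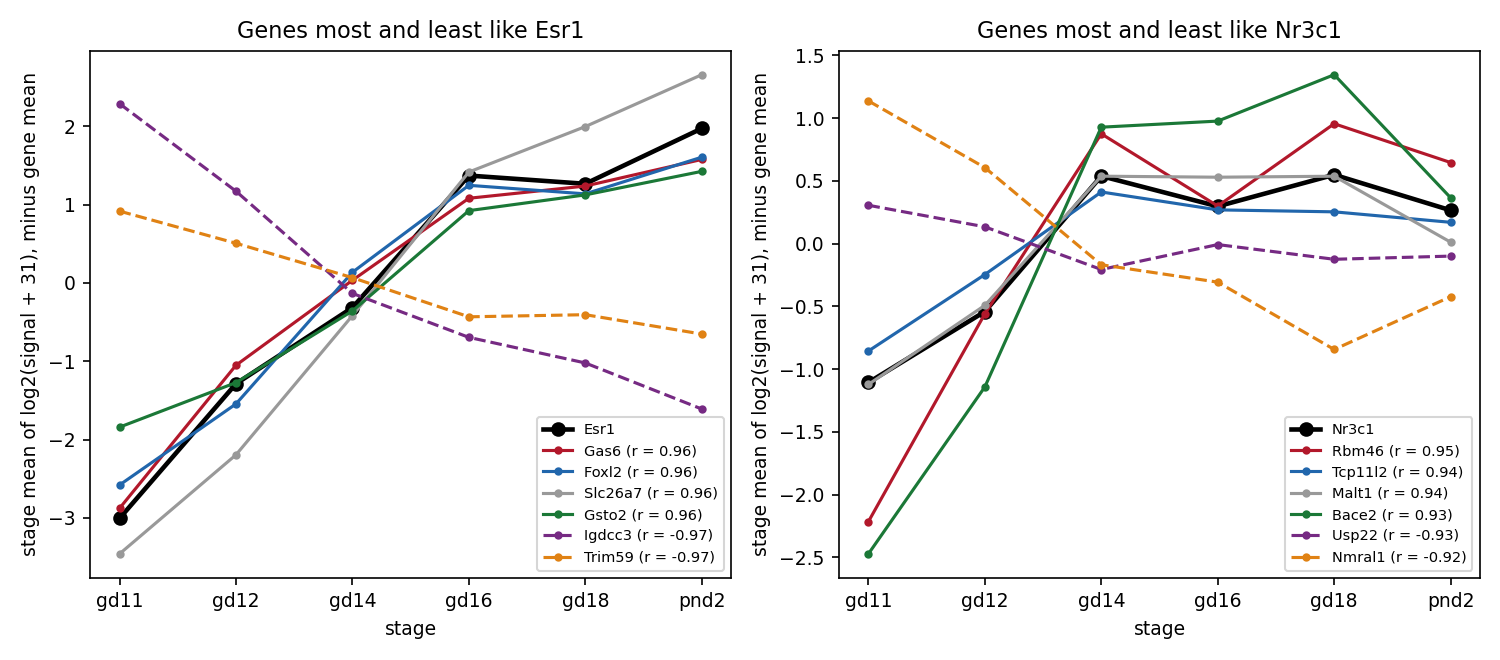
Stage means of log2(signal + 31), minus the mean of each gene, for Esr1 (left) and Nr3c1 (right, black) with the 4 genes most alike (solid) and the 2 least alike (dashed) by Pearson r over 18 arrays. The genes like Esr1 rise up to gd16 and are highest at pnd2. Those like Nr3c1 rise up to gd14, and Rbm46 and Bace2 are highest at gd18. All were chosen by their likeness to the receptor.

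The other genes of these pathways were read from lists, by their counts beside the background of 42% called over the span. Of the other steroid and thyroid hormone receptors, 2 of 3 tested rose from gd11 to pnd2 and none fell: Nr3c2, the mineralocorticoid receptor, by 1.71 (limma adjusted p = 0.000164; 2.80 and 0.77 with the smaller and the larger pseudocount tried) and Thra, thyroid hormone receptor alpha, by 1.32 (adjusted p = 3.54e-07). Of 15 orphan and retinoid receptors 3 rose and 4 fell. Nr5a2, a receptor of granulosa cells needed for ovulation, rose by 2.87 (adjusted p = 5.41e-08), while Nr2f1 fell by 4.07 (adjusted p = 4.52e-08) and Rarb, retinoic acid receptor beta, fell by 2.70 (adjusted p = 1.94e-06). Of 6 membrane progestin and steroid receptors only Paqr7 was called, higher by 1.76 (adjusted p = 0.000266), and by 1.16 with the mean of its probe sets or 1.06 with the larger pseudocount.

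Proteins that work with nuclear receptors moved in both directions. Of 16 coregulators 5 rose and 7 fell, with a list median of -0.11 beside 0.01 for all tested probe sets. Ncoa1, a coactivator of steroid receptors, rose by 1.28 (limma adjusted p = 4.11e-06), and Smarca4, the motor of a chromatin remodelling complex, fell by 0.74 (adjusted p = 0.000164). Of 8 chaperones 1 rose and 3 fell, and the pair of immunophilins that bind the glucocorticoid receptor complex moved in opposite directions. Fkbp5, itself induced by glucocorticoids, rose by 0.95 (adjusted p = 0.00028), but by 0.43 with the mean of its probe sets, where the call was lost (adjusted p = 0.0518), and Fkbp4 fell by 0.76 (adjusted p = 0.000649).

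Of 13 gonadotropin subunits and hormone axis receptors 5 were bright enough to be tested, and 1 rose and 3 fell: Lgr5, a receptor of R-spondins related to the gonadotropin receptors, rose by 2.44 (limma adjusted p = 2.27e-07). On the side of signalling, 5 of 20 signalling genes rose and 7 fell over the span, with a list median of -0.12. Adcy9, an adenylyl cyclase, rose by 1.69 (limma adjusted p = 1.38e-06), most of it at gd14 versus gd12 (1.61, adjusted p = 1.16e-05, and 1.01 with the mean of its probe sets). Pde4b, which breaks down cyclic AMP, fell by 1.13 (adjusted p = 0.000806), a call lost with the mean of its probe sets (-0.39, adjusted p = 0.0572). Of 7 tested genes that respond to FSH in granulosa cells 5 rose and 1 fell, with a median of 1.51. Inha, the inhibin alpha subunit, went from a mean of 510 at gd11 to 6474 at pnd2 (3.61, adjusted p = 6.36e-11), and 2.09 of that came at pnd2 versus gd18 (adjusted p = 7.94e-07). Foxl2, also a granulosa lineage marker here, rose by 4.19 (adjusted p = 1.01e-10), and by 2.16 with the mean of its probe sets. Snap25, also a neuronal gene, fell by 2.98 (adjusted p = 0.00113), and changed by -1.81 with the mean of its probe sets, -1.74 with the larger pseudocount and -1.98 without gd11 sample 16. Of 5 tested LH-responsive and steroid synthesis genes Hsd3b1 rose by 3.37 (adjusted p = 1.49e-08) and Scarb1, the lipoprotein receptor that brings in cholesterol, by 0.75 (adjusted p = 0.00185).

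Genes known to respond to the nuclear receptors moved both ways. Of 10 oestrogen-responsive genes 3 rose and 3 fell, with a median of 0.31: Greb1, an oestrogen-induced cofactor of the receptor, rose by 0.93 (limma adjusted p = 0.00691), and Cxcl12, a chemokine, fell by 3.08 (adjusted p = 6.41e-05; -1.29 with the mean of its probe sets). Of 12 glucocorticoid-responsive genes 4 rose and 4 fell, with a median of -0.13. Mt2, a metallothionein, rose by 2.44 (adjusted p = 7.31e-07) and Klf9, a transcription factor, by 1.86 (adjusted p = 7.91e-07; 0.68 with the mean of its probe sets), while Dusp1, a phosphatase of MAP kinases, fell by 1.87 (adjusted p = 3.28e-06). At gd14 versus gd12, the step at which Nr3c1 rose, 3 of the 12 rose and 3 fell, against 16.5% of all tested probe sets called, with a list median of -0.15 beside -0.04 for all. Among them were Tsc22d3, the glucocorticoid-induced leucine zipper, up by 1.19 (adjusted p = 0.00051) and Sgk1, a kinase, down by 1.33 (adjusted p = 0.00017). Of 7 progesterone-responsive genes 1 rose and 3 fell over the span. Of 3 tested enzymes of glucocorticoid and steroid metabolism 2 fell, among them Hsd11b2, which inactivates glucocorticoids, by 0.69 (adjusted p = 0.0136). That call was lost with gd11 samples 18 and 19 averaged (adjusted p = 0.0624) and without sample 18 (adjusted p = 0.0605) or 19 (adjusted p = 0.0654).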

How the data were processed

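RNA of each sample was amplified and biotin-labelled for Affymetrix Mouse430_2 arrays, per the labels' protocols. The authors deposited linear signal intensities, and the submitters' processing notes name GCOS. GCOS version, settings and background handling are not stated there. The 2%-trimmed mean is 500 on each array. Precision is limited by how many arrays there are.

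Values were used as deposited, on the scale log2(signal + 31). The pseudocount is the 25th percentile of ovary values and the filter on stage means, 116.05, their median. Of 45101 probe sets 64 are controls, 34945 have 1 gene, 932 several and 9160 none; symbols were updated through RefSeq. The fit used limma 3.58.1 (R 4.3.3) and had 1 term per stage, a mean-variance trend, 12 residual degrees of freedom and two-sided tests; the reference array was left out. The p-values measure the spread between samples of different dams, apart from gd11 samples 18 and 19, and between pools where the labels are right. The procedure was tested on simulated data.

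The members and gene lists were chosen with earlier results of these data known, so the patterns give no independent support for that choice. Named are the members, the 4 most and 2 least alike genes of Esr1, Esr2, Pgr and Nr3c1, and the called list genes with the largest changes. Alternatives were a pseudocount of 8 or 116, quantile or median scaling, no filter or one at 507.26 (the 75th percentile), fitting only the arrays compared, no trend, array weights, gd11 samples 18 and 19 averaged, gd11 sample 19 alone, the mean of a gene's probe sets, and leaving out each array. The comparison between probe sets of a gene, the bounds against the olfactory level and the repeat of the gd16 probe sets without sample 7 were added after the data were seen.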

Additional observations from a re-analysis of the deposited data

How the results depend on the processing

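The number of probe sets called moved by over 1.5 times under these settings. With the filter at the 75th percentile, where fewer probe sets were tested, the F test called 10897 and pnd2 versus gd11 called 7355. With that filter 2 in place of 4 receptor genes were called over the 6 stages, as Esr2 and Pgr were not tested. The 4 include Esr2, which passed the main filter only through pnd2. Its call follows from that filter and was not counted in the Results. A fit to only the arrays compared called 438 at gd12 versus gd11 and 898 at gd18 versus gd16. Averaging gd11 samples 18 and 19 called 687 at gd12 versus gd11, and gd11 sample 19 alone called 77 there and 6798 at pnd2 versus gd11. Leaving out 1 array at a time gave 339 to 1175 at gd12 versus gd11, 2604 to 4539 at gd14 versus gd12, 2927 to 5200 at gd16 versus gd14, 1136 to 2130 at gd18 versus gd16 and 1822 to 3620 at pnd2 versus gd18. The arrays whose absence moved these counts by over 1.5 times were gd12 replicate 14 and gd11 replicate 16, gd12 replicates 13 and 15, gd14 replicate 12, gd18 replicates 4 and 5 and gd16 replicate 7, and pnd2 replicate 1 and gd18 replicate 6, in that order of comparisons. The log2 change of Esr1 at gd18 versus gd16 ran from -0.35 to 0.13 as single arrays were left out, positive without gd18 replicate 5 (0.06) or gd16 replicate 7 (0.13). That of Nr3c1 (1421867_at) at gd16 versus gd14 turned negative under quantile normalization (-0.0069), median scaling (-0.16) and array weights (-0.14), and ran from -0.21 to 0.24 as single arrays were left out. None of these was called. No paired analysis was possible because the sample numbers are not shared between stages. Signal over background limits Esr2, Fshr and the dimmer probe sets.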

Other observations

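The drop of 1 Nr3c1 probe set at gd16 was shared by probe sets of other genes, which were chosen after their values were seen. With sample 7 included, 2406 of all 26431 tested probe sets were called lower at gd16 versus gd14 and 2559 higher. The gd16 arrays were also the least alike: their mean Pearson r with their own stage was 0.9529 to 0.9568, and at least 0.9675 at the other stages. Ddx5, an RNA helicase and receptor coregulator, had 6 tested probe sets. At gd16 versus gd14 limma called 3 of them lower, 1454793_x_at by -1.13 (adjusted p = 0.000117), 1438371_x_at by -0.73 (adjusted p = 0.00416) and 1419653_a_at by -0.45 (adjusted p = 0.0388), while 1423645_a_at (0.06), 1433810_x_at (-0.04) and 1433809_at (0.71) were not called. Without gd16 sample 7 the first changed by -0.96 (adjusted p = 0.000854), the second by -0.61 (adjusted p = 0.0261) and the third by -0.43 (adjusted p = 0.0996). Hsd17b4, a peroxisomal enzyme, had 1455777_x_at at -0.84 at gd16 (adjusted p = 0.00115; -0.59 and adjusted p = 0.0029 without sample 7) beside 0.08 for 1417369_at. Prkaca, the catalytic subunit of protein kinase A, had 1447720_x_at at -0.58 (adjusted p = 0.0135), a call lost without sample 7 (-0.52, adjusted p = 0.053), beside 0.02 for 1450519_a_at. Bzw2, looked at beside these genes, went the other way. Its 1424608_a_at rose by 4.66 at gd16 versus gd14 (limma adjusted p = 4.7e-07), and by 5.04 without sample 7 (adjusted p = 8.36e-07). Its 1423456_at (0.14) and 1443227_at (0.11) were not called. In all, 605 probe sets, 2.29% of those tested, were called lower at gd16 than at gd14 and higher at gd18 than at gd16. Without sample 7 there were 382, or 1.45%, and 330 were in both counts.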
